A study of Mus musculus with 30 samples.

Results

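The edge CpGs of the IG-CGI are the first 5 of the 29 CpGs on the amplicon reference of that CpG island, and are named here by their base on that reference: CpG55, CpG59, CpG72, CpG77 and CpG101. They span 46 bases, with spacings of 4, 13, 5 and 24 bases, and the next site, CpG108, lies 7 bases beyond the last of them. They were chosen by position, with their measured levels in the 17 libraries on this reference already known. Their levels in those libraries are therefore given as a description, without a test. Tests were run only on 3 further libraries, from a reporter cell line and called on a reporter reference of the island. Those 3 libraries did not enter the choice.

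The IG-CGI belongs to the IG-DMR, the intergenic control region of the imprinted Dlk1-Dio3 domain. In normal tissue this region is methylated on the copy inherited from the father and unmethylated on the copy inherited from the mother, and the domain's genes are read from one copy or the other accordingly. Zfp57, a zinc finger factor, recognises imprinting control regions on their methylated copy and helps to keep that methylation. Dnmt1 copies CpG methylation to the new strand after DNA replication, and the Tet enzymes oxidise methylated cytosine. Gzf1 is another zinc finger protein, and the study asked how its loss, and that of the other factors, alters methylation at this locus.

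The study measured CpG methylation by bisulfite amplicon sequencing in 30 mouse libraries, of which 17 read the endogenous IG-CGI. Each read gives 1 methylated or unmethylated call per CpG. Levels below are the share of calls at a CpG, in percent, that were methylated. Bisulfite cannot tell methylated from hydroxymethylated cytosine, and reads were not assigned to a parental copy here.

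The mouse embryonic stem cell (mESC) libraries were wild-type V6.5 cells, Gzf1 knockout V6.5 cells, Dnmt1 knockout V6.5 cells and a Tet triple knockout line, Tet-TKO, which is labelled as a line other than V6.5. The embryo libraries were wild-type and Gzf1 knockout trunk at E10.5, in days of embryonic development. The oocyte libraries were 1 wild-type and 2 Gzf1 knockout libraries of mature (MII) oocytes. The tail libraries were an adult wild-type mouse, an adult Gzf1 knockout mouse and 5 heterozygous adults that inherited the Gzf1 knockout from the mother, bred from knockout females and wild-type males. One further library came from a Gzf1 knockout pup found dead at birth. Its tissue label reads adult tail, and its title was followed here instead. The heterozygous animals are titled adult mice and named pups in the submitters' library names. Strain, exact age, the number of animals or oocytes per library and the number of clones per knockout line are not stated in the labels. All groups but the knockout oocytes and the heterozygous tails hold 1 library, and genotypes rest on the labels because expression was not measured. Nothing in the labels says that the 2 knockout oocyte libraries are from different females, and the spread between them may be technical.

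Libraries held 418 to 1917 reads, and each edge CpG had 404 to 1887 calls. The edge CpGs were called in 93.8% to 98.9% of reads and the other CpGs in 74.0% to 98.9%. The Wilson 95% intervals of single edge CpG levels were 0.469 to 9.37 points wide. The reads come from PCR without molecular identifiers, so several may copy 1 molecule, and the intervals cover counting error only. A field of the deposited file names was read here as the sequencing order, and it took 8 values over these libraries. That it marks separate sequencing batches is an assumption. The trunk pair shared 1 order, the adult wild-type and knockout tails shared another, and the dead pup shared that of the heterozygous tails. In mESC, in oocytes, and for the heterozygous tails and the dead pup against the wild-type tail, order and genotype cannot be told apart. The dead pup and the adult knockout tail also came from different orders.

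In wild-type cells the edge CpGs followed the island in mESC, trunk and oocytes, and stood above it in adult tail. Each of these wild-type libraries came from a different sequencing order, so source and order cannot be told apart. In wild-type mESC the level was 37.2% at CpG55, 37.2% at CpG59, 36.1% at CpG72, 37.4% at CpG77 and 36.3% at CpG101. Their mean of 36.8% lay 0.102 points above the mean of the other 24 CpGs, which was 36.7%. In wild-type trunk the same CpGs stood at 44.4%, 48.3%, 45.4%, 44.6% and 45.2%. Their mean of 45.6% was 0.608 points above that of the others. The largest gap between edge CpGs was 1.24 points in wild-type mESC and 3.98 points in wild-type trunk, so no site stood far from the rest in either.

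Wild-type MII oocytes, which carry only maternal copies, were nearly free of methylation. The levels were 0.18%, 0.359%, 0.356%, 0.444% and 0.801% from CpG55 to CpG101, and the mean was 0.428% against 0.275% at the other CpGs.

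In the adult wild-type tail the edge CpGs spread apart. CpG55 had a level of 56.5% (95% interval 54.1% to 58.8%). CpG59 had 68.7% (66.5% to 70.9%) and CpG72 had 61.9% (59.5% to 64.1%). CpG77 had 55.4% (53.0% to 57.8%) and CpG101 had 50.3% (48.0% to 52.7%). Their mean of 58.6% exceeded the mean of the other CpGs, 50.5%, by 8.08 points. The other CpGs of that library ran from 42.5% at CpG131 to 56.2% at CpG214, so CpG55, CpG59 and CpG72 lay above every other CpG of the amplicon. The levels dropped from CpG59 towards the interior, and CpG108 stood at 45.5%.

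**Figure D1:**
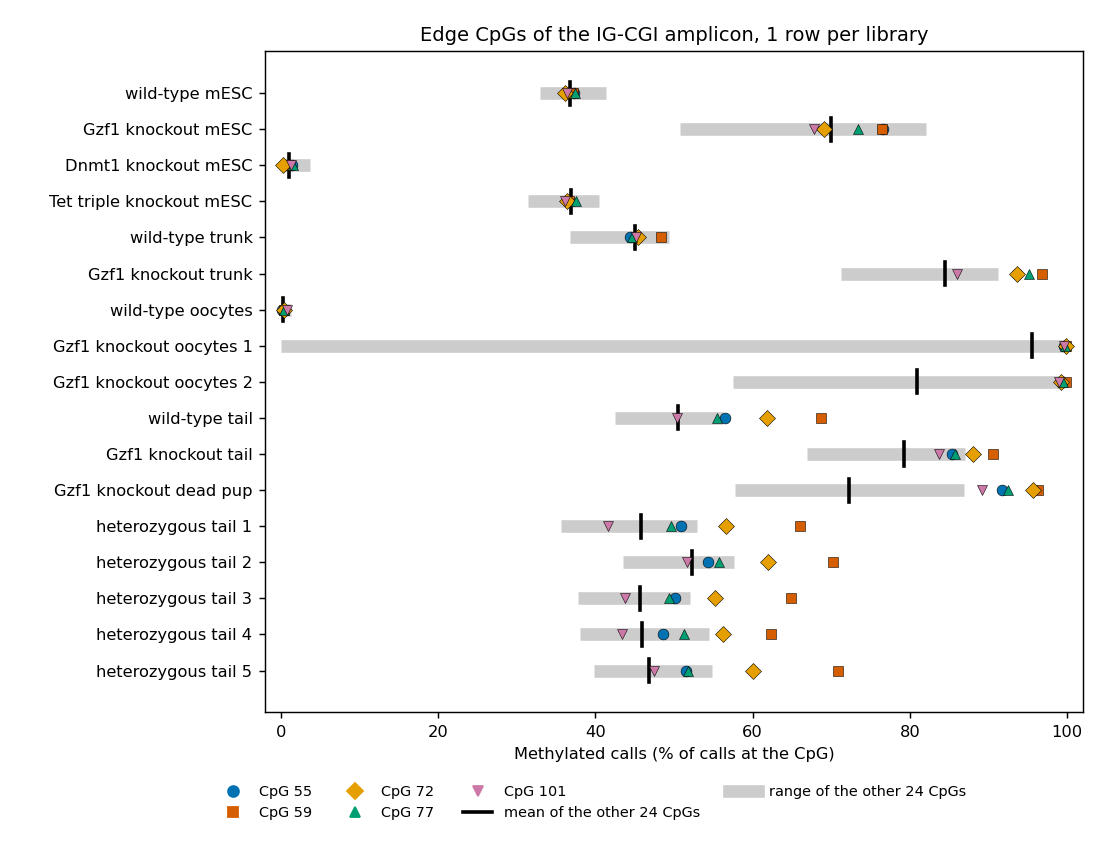
Methylation level (percent of calls methylated) of CpG55, CpG59, CpG72, CpG77 and CpG101 in each of the 17 libraries, with the mean (black line) and range (grey bar) of the other 24 CpGs of the same library. The edge CpGs coincide in mESC, trunk and oocytes of wild-type genotype. They fan out in the wild-type and heterozygous tails, with CpG59 at 68.7% and CpG101 at 50.3% in the wild-type tail. Their spread is 6.89 points in Gzf1 knockout tail and 7.09 in the dead pup, beside 10.8 in Gzf1 knockout trunk.

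The same sites led in the tails whatever the genotype. In all 8 libraries of tail or pup, CpG59 had the highest level of the 29 CpGs, CpG72 the second highest, and CpG101 the lowest of the edge CpGs. The 5 heterozygous tails gave a level of 51.1% ± 2.11 (SD, n = 5) at CpG55, 66.8% ± 3.64 at CpG59, 58.0% ± 2.86 at CpG72, 51.6% ± 2.54 at CpG77 and 45.6% ± 3.99 at CpG101. By animal, CpG59 read 66.0%, 70.2%, 64.9%, 62.3% and 70.9%, and CpG101 read 41.6%, 51.6%, 43.8%, 43.4% and 47.4%. The ranges of these sites did not overlap: the lowest CpG59 level, 62.3%, lay above the highest CpG101 level, 51.6%. CpG55 and CpG77 were close to each other in each animal, at 48.6% to 54.4% and 49.4% to 55.7%, and did not differ beyond the spread between animals. The edge mean was above the mean of the other CpGs in 5 of 5 animals, by 7.33 points ± 1.24 (6.499 to 9.49). Over all 17 libraries it was above in 16, the exception being Tet triple knockout mESC at -0.291 points, and the excess was under 1 point in 4 of the 16. The tally depends on which CpGs and reads are averaged. It was 14 of 17 without CpG108 to CpG149, where wild-type mESC (-0.311 points) and wild-type trunk (-0.309) turned negative, and 15 without each library's lowest other CpG, where wild-type mESC did (-0.0619). With identical read patterns counted once it was 13, with wild-type mESC (-0.195), wild-type trunk (-0.427) and Dnmt1 knockout mESC (-0.537) negative beside Tet-TKO.

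Loss of Gzf1 went with higher edge methylation in mESC, trunk, oocytes and tail. In Gzf1 knockout mESC the levels were 76.6%, 76.4%, 69.1%, 73.4% and 67.8% from CpG55 to CpG101. All 5 were higher than in wild-type mESC by 20 points or more, the size counted as a difference throughout, where 93.1% of the amplicon's CpGs met that size. The difference was 39.4 points at CpG55 (Newcombe 95% interval 35.9 to 42.7), 39.2 at CpG59, 33.0 at CpG72, 36.1 at CpG77 and 31.5 at CpG101 (28.0 to 34.9). At CpG108 it was 18.9 points (15.3 to 22.4). The mean difference was 35.8 points at the edge CpGs and 33.2 at the others, and the others ran from 17.9 at CpG131 to 44.8 at CpG214. When identical read patterns were counted once, the mean edge difference was 18.6 points and 2 of the 5 CpGs met the 20-point size, as did 24.1% of the amplicon's CpGs counted in this way.

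In Gzf1 knockout trunk the edge CpGs read 93.6%, 96.8%, 93.6%, 95.2% and 86.0%. They exceeded the wild-type trunk by 49.3, 48.5, 48.2, 50.6 and 40.8 points, so 5 of 5 met the 20-point size, as did 100% of the amplicon's CpGs. The 4 largest differences of the whole amplicon were those at CpG77, CpG55, CpG59 and CpG72. The mean difference was 47.5 points at the edge and 39.4 at the other CpGs. CpG55, CpG59, CpG72 and CpG77 stood above the highest other CpG, CpG214 at 91.2%, while CpG101 stood below it and CpG108 was lower again at 79.3%.

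The knockout oocytes were methylated at the edge almost without exception. The levels in library 1 were 99.6%, 99.9%, 99.8%, 99.7% and 99.7%, and in library 2 they were 99.2%, 99.9%, 99.2%, 99.5% and 99.0%. Against wild-type oocytes 5 of 5 edge CpGs were higher by 20 points or more in each of the 2 libraries, where 96.6% of the amplicon's CpGs were, and the mean edge difference was 99.1 points. The edge mean was 99.7% in library 1 and 99.4% in library 2, while the mean of the other CpGs was 95.5% in library 1 and 80.9% in library 2. The edge sites thus agreed between libraries within 1 point, while the mean of the rest of the amplicon differed. Such agreement was not confined to the edge. CpG108 ranged from 99.1% to 99.9% between the libraries. At CpG251 the mean difference from wild type was 99.8 points, above that of every edge CpG. The excess of the edge over the rest was 4.18 points in library 1 and 18.4 in library 2, so its size depended on the library. In library 1 the lowest other CpG was CpG231 at 0.0708%, and in library 2 it was CpG246 at 57.6%. Without its lowest other CpG, a comparison added after the data were seen, the excess was 0.0304 points in library 1 and 17.4 in library 2.

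In the adult Gzf1 knockout tail the levels were 85.4%, 90.6%, 88.0%, 85.7% and 83.7%. All 5 were higher than in the wild-type tail by 20 points or more, as were 100% of the amplicon's CpGs. The difference was smallest at CpG59, the site with the highest level in wild type, at 21.9 points (19.2 to 24.5), and largest at CpG101 at 33.4 points (30.3 to 36.3). CpG55, CpG72 and CpG77 lay between, at 28.9, 26.2 and 30.3 points. The spread between the edge CpGs was 6.89 points in the knockout against 18.4 in the wild-type tail. The mean difference was 28.1 points at the edge and 28.8 at the others, a gap of -0.700 points. With a minimum of 30 points, 2 of the 5 CpGs counted, as did 37.9% of the amplicon's CpGs.

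The dead Gzf1 knockout pup had 91.7% at CpG55, 96.3% at CpG59, 95.7% at CpG72, 92.5% at CpG77 and 89.2% at CpG101. All 5 lay above every other CpG of that library, which ran from 57.7% at CpG244 to 86.9% at CpG214. Between CpG101 and CpG108, 7 bases apart, the level dropped from 89.2% (87.2% to 90.8%) to 65.9% (63.1% to 68.6%). The edge mean of 93.1% was 20.8 points above that of the other CpGs, the widest excess of the 17 libraries. Set against the adult wild-type tail, with which the knockout and heterozygous tails were also compared, 5 of 5 edge CpGs were higher by 20 points or more, where 72.4% of the amplicon's CpGs were. The difference was 38.9 points at CpG101, 37.1 at CpG77, 35.3 at CpG55, 33.8 at CpG72 and 27.5 at CpG59. The mean difference was 34.5 points at the edge and 21.8 at the others. Age differs between these animals as well as genotype and sequencing order, and these cannot be told apart. Age and sequencing order differ between the dead pup and the surviving knockout too, and so may the tissue. Beside the surviving knockout's tail, the edge CpGs of the dead pup were higher, by 5.47 points at CpG101 to 7.67 at CpG72 and by 6.39 on average. The other CpGs differed by -7.06 points on average, with CpG108 at -9.33 points.

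**Figure D2:**
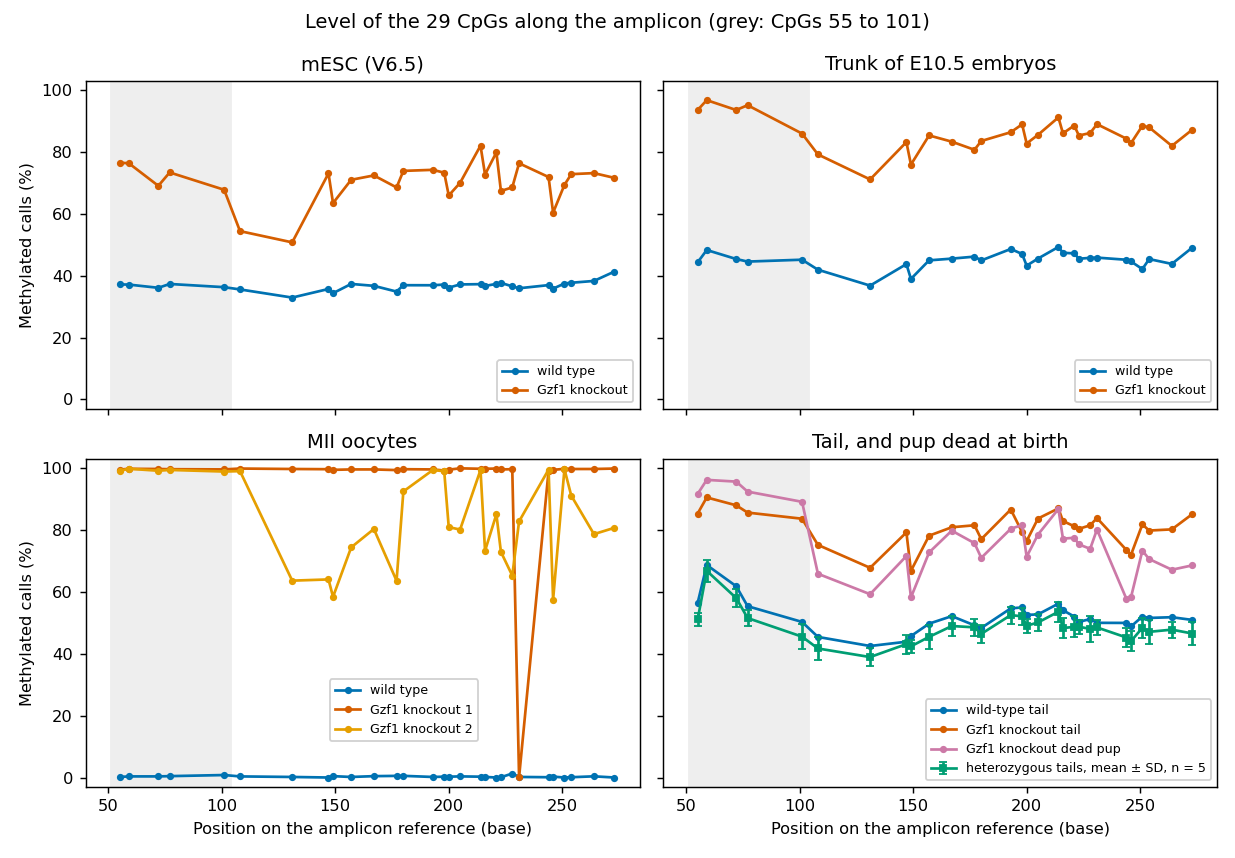
Methylation level (percent of calls) along the amplicon by CpG position (bases from the start of the amplicon reference), by source, with the edge CpGs shaded and the heterozygous tails as mean ± SD (n = 5). In the dead pup the level steps from 89.2% at CpG101 to 65.9% at CpG108, while in wild-type mESC the profile is nearly flat across that boundary.

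The heterozygous tails with a maternal Gzf1 knockout allele lay near the wild-type tail. Their mean edge level of 54.6% ± 2.81 (SD, n = 5) was -3.93 points from the single wild-type tail, and 4 of 5 animals lay below it. The difference was -5.37 points at CpG55, -1.88 at CpG59, -3.82 at CpG72, -3.83 at CpG77 and -4.77 at CpG101. CpG55 was below wild type in 5 of 5 animals and CpG59 in 3 of 5. No edge CpG differed by 20 points, and 0% of the amplicon's CpGs did. With 1 wild-type tail its own spread is unknown.

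Dnmt1 knockout mESC had almost no edge methylation, and Tet-TKO mESC had wild-type levels. Both were set against the same wild-type V6.5 library as the Gzf1 knockout. In Dnmt1 knockout cells the levels were 1.46%, 1.06%, 0.266%, 1.59% and 1.33%. All 5 were lower by 20 points or more, as were 100% of the amplicon's CpGs, and the differences ran from -36.1 points at CpG59 to -35.0 at CpG101. In Tet-TKO cells the levels were 36.6%, 36.6%, 36.4%, 37.6% and 36.1%. The differences from wild type ran from -0.612 points at CpG55 (-5.95 to 4.90) to 0.263 at CpG72 (-5.07 to 5.77). No edge CpG met the 20-point size, and 0% of the amplicon's CpGs did. A difference of a few points was not detectable at this depth.

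A single read shows which of the edge CpGs were methylated on the same molecule. A read is written here as 5 letters in the order CpG55, CpG59, CpG72, CpG77 and CpG101, with Z for a methylated and z for an unmethylated call. The patterns shown are the uniform states and, for each library, its most frequent mixed pattern. Some of these led by few reads. Wild-type trunk had 37 zZzzz and 35 ZZZZz reads, and the dead pup had 65 ZZZZz and 61 zZZZZ reads. Dnmt1 knockout mESC had 10 zzzZz and 9 Zzzzz reads, and wild-type oocytes had 8 zzzzZ and 5 zzzZz reads.
Uniformly methylated read: ZZZZZ
Uniformly unmethylated read: zzzzz
Most frequent mixed read of wild-type trunk, wild-type tail and all 5 heterozygous tails: zZzzz
Most frequent mixed read of 8 libraries, the Gzf1 knockouts among them: ZZZZz
Most frequent mixed read of Dnmt1 knockout mESC: zzzZz
Most frequent mixed read of wild-type oocytes: zzzzZ

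In wild-type mESC, of 1146 reads called at all 5 sites, 29.1% were ZZZZZ, 57.7% were zzzzz and 13.2% (11.3% to 15.3%) were mixed. In wild-type trunk 36.2% of 1313 reads were ZZZZZ, 43.9% zzzzz and 19.9% mixed. In wild-type tail 40.2% of 1658 reads were ZZZZZ, 20.6% zzzzz and 39.1% (36.8% to 41.5%) mixed. Fully unmethylated reads were thus less frequent in the tail and mixed reads more frequent, by more than the counting intervals. Source and sequencing order cannot be told apart in this comparison. The heterozygous tails had 36.2% ± 3.76 ZZZZZ, 22.7% ± 3.14 zzzzz and 41.1% ± 3.87 mixed reads (SD, n = 5). Counting identical read patterns once raised the mixed share to 26.6% in wild-type mESC, 35.2% in wild-type trunk and 53.8% in wild-type tail.

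In the wild-type and heterozygous tails the commonest mixed read carried a methylated call at CpG59 alone. In wild-type tail zZzzz made up 8.32% of reads (138 reads, 95% interval 7.09% to 9.75%). The pattern ZZZZz, with CpG101 alone unmethylated, made up 3.92% there. Over the 6 wild-type and heterozygous tails zZzzz ranged from 7.99% to 10.6% of reads. In wild-type trunk it was 2.82%. CpG55 and CpG59, although 4 bases apart, gave different calls on 19.96% to 26.1% of reads in these 6 tails, and on 16.9% to 22.8% of reads CpG59 alone of the pair was methylated. In wild-type mESC the pair gave different calls on 3.79% of reads and in wild-type trunk on 8.67%.

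**Figure D3:**
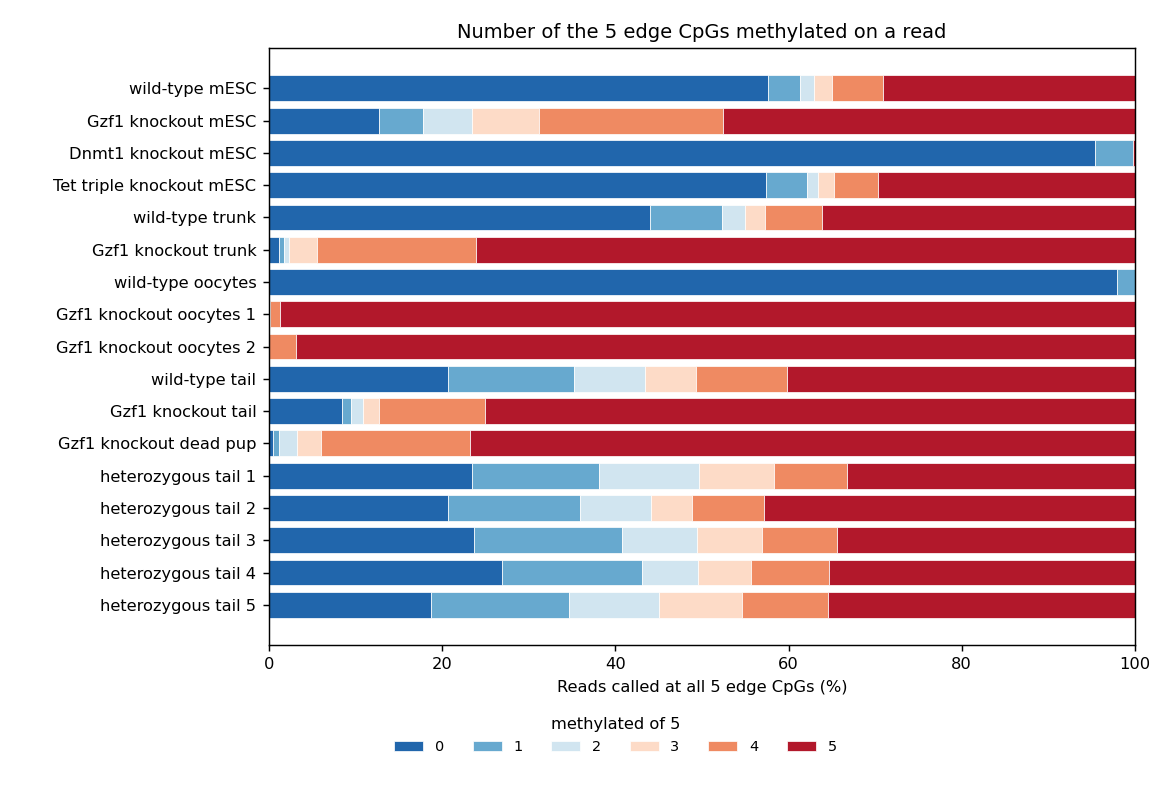
Percent of reads, among those called at all 5 edge CpGs, with 0, 1, 2, 3, 4 or 5 of them methylated (colours), by library. Mixed reads make up 13.2% in wild-type mESC, 39.1% in wild-type tail and 36.5% to 45.9% in the heterozygous tails, and reads with 0 methylated edge CpGs make up 0.453% in the dead pup.

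Reads with a single unmethylated edge call were more frequent in Gzf1 knockout mESC, knockout trunk and the dead pup than in wild-type mESC, trunk and tail, and rare in knockout oocytes. They made up 21.2% of reads in knockout mESC, 18.4% in knockout trunk, 12.3% in knockout tail and 17.2% in the dead pup. The share was 5.85% in wild-type mESC, 6.55% in wild-type trunk and 10.49% in wild-type tail, and it was 1.15% and 3.10% in the knockout oocyte libraries. The counting intervals of the knockout tail (10.7% to 14.1%) and the wild-type tail (9.11% to 12.1%) overlapped. ZZZZZ reads were more frequent in these knockouts too. Beside them, reads with 1 unmethylated call numbered 388 to 872 in knockout and 67 to 334 in wild-type mESC. In trunk the counts were 327 to 1351 in the knockout and 86 to 475 in wild type. They were 190 to 847 in the dead pup and 180 to 1099 in knockout tail, lower ratios than the 174 to 667 of wild-type tail. In every library with such reads, wild type included, the unmethylated call was most often at CpG101. In knockout mESC 47.6% of 1832 reads were ZZZZZ, 12.7% zzzzz and 39.7% mixed, and ZZZZz made up 7.86% (144 reads). In knockout trunk 76.1% of 1776 reads were ZZZZZ, 1.13% zzzzz and 22.8% mixed, with 172 ZZZZz reads (9.68%, 8.39% to 11.1%) making up 42.5% of the mixed ones. With identical patterns counted once the mixed share was 34.0% in knockout trunk, beside 35.2% in wild type. In knockout tail 75.1% of 1464 reads were ZZZZZ, 8.47% zzzzz and 16.5% mixed, with ZZZZz at 4.37%. In the dead pup 76.8% of 1103 reads were ZZZZZ, 0.453% zzzzz and 22.8% mixed, with ZZZZz at 5.89%. The dead pup and the surviving knockout therefore had like shares of ZZZZZ reads, and zzzzz reads were more frequent in the survivor. Mixed reads were fewer in the knockout tail (16.5%) than in the wild-type tail (39.1%), and more frequent in knockout mESC (39.7%) than in wild-type mESC (13.2%).

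Oocyte reads were almost uniform in both genotypes when every read was counted. In wild type 97.9% of 1093 reads were zzzzz and none was ZZZZZ, which allows a share of up to 0.274%. In the knockout libraries 98.8% of 1390 and 96.9% of 741 reads were ZZZZZ and none was zzzzz, which allows up to 0.216% and 0.405%. Mixed reads made up 2.10% in wild type, and with identical patterns counted once 10% in wild type and 7.98% in the knockout. In Dnmt1 knockout mESC 95.4% of 733 reads were zzzzz and 4.37% mixed. Tet-TKO mESC had 29.7% ZZZZZ, 57.4% zzzzz and 12.9% mixed reads of 394, within the counting intervals of wild-type mESC. With identical patterns counted once the mixed share was 11.4% in Dnmt1 knockout and 28.1% in Tet-TKO mESC.

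The edge CpGs were then read against the rest of the same molecule. A read was called mostly unmethylated where at most 30% of its other calls, with at least 5 of them, were methylated, and mostly methylated where at least 70% were. Neither class uses the edge calls. On mostly unmethylated reads of wild-type mESC (728 reads) the edge mean was 5.69% against 1.60% at the other CpGs, and in wild-type trunk (703 reads) it was 9.21% against 3.43%. Since reads were sorted by the other CpGs, those are held low on such reads by construction. The last 5 CpGs of the amplicon, its far end, were read in the same way, with reads sorted by all CpGs but those 5. That sorting includes the edge CpGs, so the far-end means come from another set of reads. They were 2.32% in wild-type mESC (729 reads) and 3.11% in wild-type trunk (703 reads).

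In wild-type tail the far-end mean was 6.65%, on the 760 reads of its own class. The edge mean on 793 mostly unmethylated reads was 25.4%, and 59.4% of such reads had at least 1 methylated edge call. CpG59 was methylated on 43.3% of them (39.8% to 46.8%), CpG72 on 31.4%, CpG55 on 23.1%, CpG77 on 18.3% and CpG101 on 10.9% (8.86% to 13.2%). CpG108 stood at 6.61%. CpG59, CpG72, CpG55 and CpG77 exceeded the highest other CpG, which was CpG214 at 13.4%. The sorting holds the other CpGs low on such reads, so this gap is partly set by it. The heterozygous tails had an edge mean of 24.8% ± 2.65 on such reads, with CpG59 at 45.3% ± 4.59 (38.7% to 51.5%) and CpG101 at 10.3% ± 2.61 (7.19% to 14.3%). Their far-end mean was 7.41% ± 0.944, and the ranges of the edge and far-end means did not overlap. Of the 138 zZzzz reads of wild-type tail, 87.0% were mostly unmethylated elsewhere and 7.25% mostly methylated. In the 5 heterozygous tails 88.0% to 91.6% of them were mostly unmethylated elsewhere. The ZZZZz reads were divided. Of the 65 in wild-type tail, 43.1% were mostly unmethylated elsewhere and 36.9% mostly methylated. In the heterozygous tails 39.7% to 54.3% of ZZZZz reads were mostly unmethylated elsewhere and 32.1% to 43.1% mostly methylated. In these 6 tails the edge mean was above that of the other CpGs on mostly unmethylated reads and below it on mostly methylated ones. That is the direction in which the sorting moves the other CpGs, so it is no separate result.

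**Figure D4:**
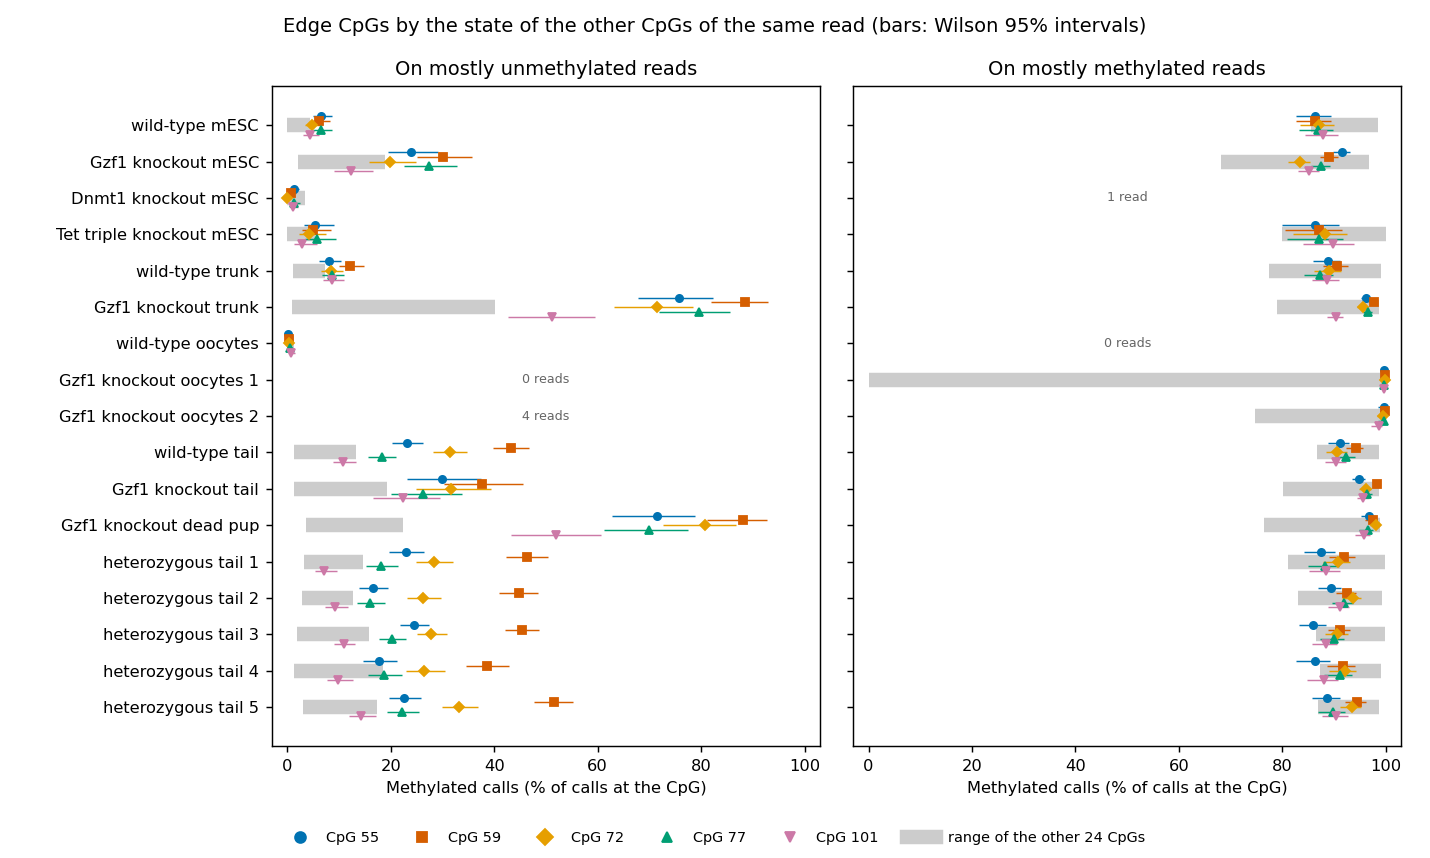
Methylation level (percent of calls) of each edge CpG on reads mostly unmethylated (left) and mostly methylated (right) at the other CpGs, by library, with Wilson 95% intervals and the range of the other 24 CpGs as grey bars. On mostly unmethylated reads the wild-type tail runs from 10.9% at CpG101 to 43.3% at CpG59, and the dead pup from 52.0% to 88.1%.

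On the few mostly unmethylated reads of knockout trunk and dead pup the edge was largely methylated. In knockout trunk the far-end mean was 30.01%, on 79 reads sorted with the edge CpGs included. The class sorted by the CpGs outside the edge held 135 reads, with an edge mean of 73.3%. CpG59 was methylated on 88.5% of them (81.8% to 92.9%), CpG77 on 79.5%, CpG55 on 75.8%, CpG72 on 71.4% and CpG101 on 51.1% (42.7% to 59.5%). At least 1 edge call was methylated on 92.9% of them, and 33.9% (43 of 127 called at all 5) were ZZZZZ. In the dead pup the far-end mean was 11.2%, on 75 reads sorted with the edge CpGs included. The class sorted by the CpGs outside the edge held 124 reads. Their edge mean was 72.5%, and 96.6% had at least 1 methylated edge call. CpG59 read 88.1% (81.1% to 92.8%) there, CpG72 80.7%, CpG55 71.4% and CpG101 52.0%, and 84 of 120 calls at CpG77 were methylated, with CpG108 at 19.5%. All 5 edge CpGs exceeded the highest other CpG in both libraries, where the sorting itself holds the other CpGs low.

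The adult knockout's tail had lower edge levels on this class of reads than the dead pup, from which it differs in age and sequencing order and perhaps tissue. Its far-end mean was 20.1%, on the 153 reads of the far end's own class. On its 159 mostly unmethylated reads the edge mean was 29.6%, and 40.1% had at least 1 methylated edge call. CpG59 read 37.7% (30.4% to 45.5%), CpG72 31.6%, CpG55 29.9%, CpG77 26.3% and CpG101 22.4%. These values lay below those of the dead pup at every edge CpG without overlap of the counting intervals. Knockout mESC had an edge mean of 22.7% on 297 such reads, with CpG59 at 30.1% and CpG101 at 12.3%. Its far-end mean was 12.7%, on 295 reads. Dnmt1 knockout mESC had 0.896% and wild-type oocytes 0.436% at the edge, near the 0.862% and 0.275% of their other CpGs.

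On mostly methylated reads the edge was largely methylated too, below the rest in some libraries and above it in others. The edge mean was 86.9% in wild-type mESC against 95.2% at the other CpGs, 87.7% against 96.0% in Tet-TKO mESC, 88.8% against 94.0% in wild-type trunk and 91.7% against 95.6% in wild-type tail. In the heterozygous tails it was 90.3% ± 1.13 against 95.6% ± 0.535. In Gzf1 knockout trunk, knockout tail and dead pup the edge was the higher, at 95.3% against 92.7%, 96.3% against 92.1% and 96.9% against 89.1%. It was the higher in the knockout oocytes too, at 99.7% against 95.5% in library 1 and 99.4% against 93.1% in library 2. In library 1 the mean of the others includes a CpG at 0.0708%. In knockout mESC it was 87.3% against 87.9%. The sorting by the other CpGs raises those on this class of reads, as it lowers them on the other.

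The 3 reporter libraries read the IG-CGI on a reporter reference, in an mESC line labelled RGM, a methylation reporter. Their genotypes were wild-type, Zfp57 knockout and Zfp57/Gzf1 double knockout. Whether that reference stands for a separate copy of the island is not stated in the labels. At an offset of 16 bases the spacing of 26 of its 28 CpGs matched the endogenous reference, against 11 at the next best offset. Reporter CpG39, CpG43, CpG56, CpG61 and CpG85 correspond in this way to CpG55, CpG59, CpG72, CpG77 and CpG101. The libraries held 182, 163 and 351 reads, 1 library per genotype, so the tests compare libraries and not conditions. The tests count each read as independent, although several reads may copy 1 molecule, so their p-values may be too small. The wild-type reporter was sequenced in another order than both knockouts, so in the wild-type comparisons order and genotype cannot be told apart.

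In wild-type reporter cells the 5 counterparts read 50.6%, 53.2%, 51.1%, 53.4% and 52.0%, a mean of 52.1% against 48.6% at the other CpGs. The other CpGs had 49 to 174 calls there and the counterparts 172 to 176, so the means rest on partly different reads. The median of the other CpGs was 44.4%. In Zfp57 knockout cells the counterparts read 9.49%, 18.1%, 11.4%, 5.66% and 5.62%, with a mean of 10.05% against 4.17% at the others. All 5 fell from wild type, by 35.1 points at CpG43 to 47.8 at CpG61 (two-sided Fisher's exact tests, Benjamini-Hochberg adjusted p = 3.31e-11 or less), as did 100% of the 28 CpGs. The counterpart of CpG59 kept the highest level, 18.1% (12.8% to 24.9%), and 3 of the 5 stood above the highest other CpG, CpG205 at 9.18%. Its interval did not overlap those of CpG61 (3.01% to 10.4%) and CpG85 (2.99% to 10.3%). The most frequent mixed read was again zZzzz, at 5.84% of 154 reads.

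In double knockout cells the counterparts read 4.36%, 8.75%, 4.94%, 2.90% and 2.62%, with a mean of 4.71% against 2.63%. All 5 fell from the same wild-type library, as did 100% of the 28 CpGs, by 44.4 to 50.6 points (Fisher's exact test, adjusted p = 1.34e-27 or less). The counterpart of CpG59 was again the highest of the 28 CpGs, at 8.75% of 343 calls. The lead was small, with CpG141 at 6.97% of 330 calls, and was not tested. The most frequent mixed read was zZzzz, at 4.46% of 336 reads, and no read was ZZZZZ, which allows up to 0.893%. Between Zfp57 knockout and double knockout 0% of the 28 CpGs were called at the 20-point size, and by adjusted p alone 14.3% were. Among the counterparts 1 of 5 passed the adjusted p, CpG43, which fell by 9.32 points (-16.6 to -3.02, Fisher's exact test, adjusted p = 0.0366). The differences at the other 4 were -5.13, -6.45, -2.76 and -3.01 points, with adjusted p = 0.162, 0.0732, 0.350 and 0.335 by the same exact test. All 5 were lower in the double knockout, where 78.6% of the 28 CpGs were, and 3 of 5 had an unadjusted p under 0.05 by the exact test, where 25% of the 28 did.

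**Figure D5:**
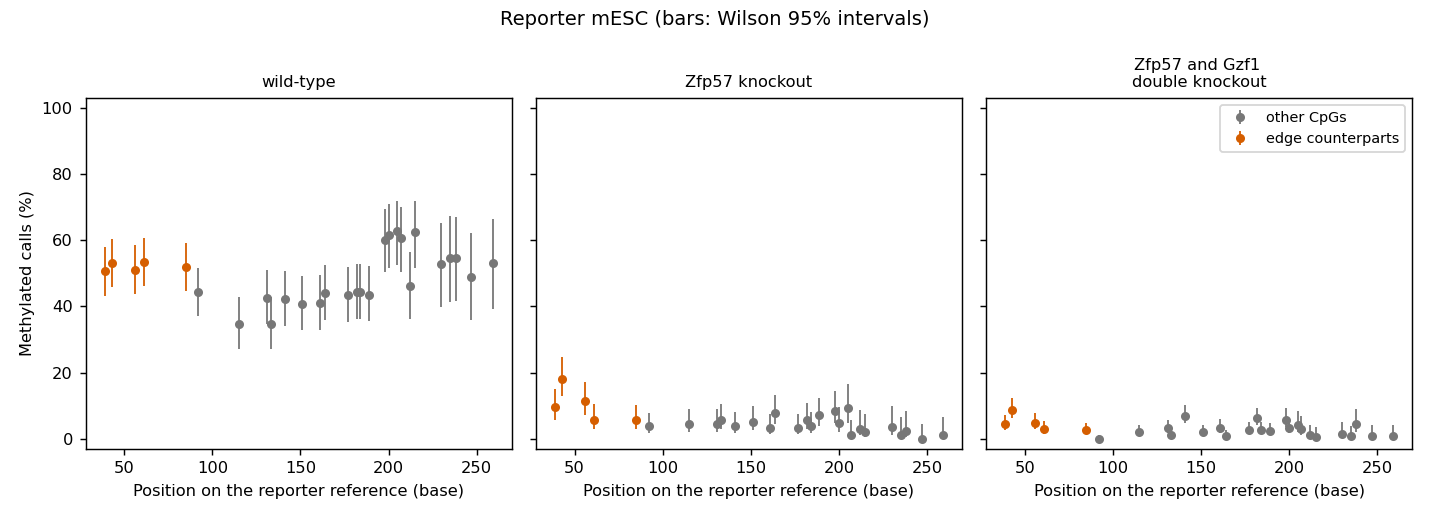
Methylation level (percent of calls, Wilson 95% intervals) of the reporter CpGs by position on the reporter reference in wild-type, Zfp57 knockout and Zfp57/Gzf1 double knockout cells, with the counterparts of the edge CpGs in orange. The 5 counterparts lie between 50.6% and 53.4% in wild type, and in both knockouts CpG43 is the highest, at 18.1% and 8.75%.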

How the data were processed

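Each of the 17 endogenous and 3 reporter IG-CGI libraries was deposited by the authors as a list of calls, 1 per read and CpG, as methylated (Z) or unmethylated (z) on the top strand. Per the file headers, version 0.22.3 of Bismark's extractor produced them. In the submitters' processing notes the Bismark version is 0.24.2 and the build mm10. The reads carry positions on amplicon references, not on chromosomes, so the deposited calls give no genome coordinates and no sequence is printed. The planned placement of the amplicon in the genome was not done because no genome was at hand. Read filters and aligner settings were not found in the labels or headers. Conversion was not checked, since only CpG calls were used.

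Amplicon CpGs were positions called in at least 10% of reads. Other positions held at most 0.0416% of an endogenous library's calls. A level needed at least 10 calls. Shares have Wilson intervals and differences Newcombe intervals, both at 95%, and the limit for a count of 0 is 3 counts of the total. Reads were classed by their other CpGs (at least 5 calls) at 70% and 30%. Groups follow titles and genotype labels. In the 17 libraries a difference was counted from 20 points, with no test. In the reporter, two-sided Fisher's exact tests were adjusted by Benjamini-Hochberg over all 28 CpGs and called at an adjusted p under 0.05 and 20 points. The code was run on simulated data first (Python 3.11.15, pandas 2.3.3, scipy 1.17.1, statsmodels 0.14.6). All 5 edge CpGs are named in each comparison, with the next site, CpG108, the highest or lowest other CpG where a range is given, and each library's most frequent mixed pattern. ZZZZz in wild-type tail was singled out after its value was seen. The members and these choices were made with earlier results of these data known. Alternatives were other coverage minimums, differences, read classes, subsets of CpGs or reads, identical patterns counted once, and each replicate left out. The median of the other CpGs, and leaving out the lowest of them, were added after seeing the data.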

Additional observations from a re-analysis of the deposited data

Results flagged for a closer look

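Among the 5 heterozygous tails, the excess of the edge CpGs over the other CpGs was 9.49 points in animal 5, far from the 6.499 to 7.15 points of the other 4 animals. The share of reads methylated at all 5 edge CpGs was 42.8% in animal 2, far from the 33.3% to 35.4% of the others. These are 2 of the 20 quantities of the heterozygous tails that were examined for a value far from the rest, and chance alone marks about 1 in 20.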

How the results depend on the processing

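Of 664 values recomputed under alternatives for 205 results, 533 stayed within the error of the reported value, 131 moved and 0 reversed a difference beyond its error. Most moves, 114, came from counting identical read patterns once, which keeps 11.3% to 67.6% of a library's reads and thins uniform reads most. Under it the edge excess became -0.537 points in Dnmt1 knockout mESC, 12.7 in knockout trunk, 10.1 in knockout tail, 26.1 in the dead pup and 8.94 in the heterozygous tails. The mean edge difference from wild type became 18.6 points in Gzf1 knockout mESC, with 2 of 5 CpGs counted, 36.5 in trunk, 96.4 in oocytes and -51.7 in Dnmt1 knockout mESC. The mixed share became 26.6% in wild-type, 47.5% in Gzf1 knockout, 11.4% in Dnmt1 knockout and 28.1% in Tet-TKO mESC, 35.2% and 34.0% in wild-type and knockout trunk, and 10% and 7.98% in wild-type and knockout oocytes. It became 53.8% in wild-type, 24.4% in knockout and 54.7% in heterozygous tail, and 28.6% in the dead pup. Without the sites CpG108 to CpG149 the excess was 7.23 points in knockout trunk, 19.1 in the dead pup, 0.845 in knockout mESC, -0.311 in wild-type mESC and -0.309 in wild-type trunk, so the sign of the smallest excesses depends on which CpGs are averaged. By the median of the other CpGs it was 0.857 in knockout mESC. With a minimum of 30 points 2 of 5 edge CpGs counted in adult tail. With read classes at 80% and 20% the edge mean on mostly methylated reads was 89.6% in knockout mESC, 92.0% in wild-type trunk and 91.8% in heterozygous tails, and on mostly unmethylated reads 64.5% in knockout trunk and 22.96% in knockout tail. Where a value moved, the cause was not tested. Leaving out each heterozygous animal gave an excess of 6.79 to 7.54 points and a mean difference from wild type of -4.97 to -3.37. Leaving out each knockout oocyte library gave an excess of 4.18 to 18.4 points and a mean difference of 98.9 to 99.3.

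No paired analysis was possible because each wild-type group has 1 library, so compared groups share fewer than 2 replicate numbers. The reporter libraries, with 163 to 351 reads, are the shallowest. Between Zfp57 and double knockout the 4 CpGs that passed the adjusted p fell by 3.75 to 9.32 points, while differences of 2.76 to 6.45 points at the other 4 counterparts did not pass it.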

Other observations

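How often neighbouring edge CpGs gave different calls on a read did not follow their distance in the tails. In the 6 wild-type and heterozygous tails CpG55 and CpG59, 4 bases apart, differed on 19.96% to 26.1% of reads. CpG59 and CpG72, 13 bases apart, differed on 19.7% to 24.7%. CpG72 and CpG77, 5 bases apart, differed on 10.7% to 17.3%, and CpG77 and CpG101, 24 bases apart, on 12.02% to 17.2%. The pairs that differed most both hold CpG59, the site with the highest level. Unequal levels of neighbouring sites by themselves force some different calls, so part of these shares is set by the levels. In wild-type mESC the 4 neighbouring pairs differed on 3.79% to 6.24% of reads, and in Gzf1 knockout mESC on 11.4% to 21.9%.

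At the inner boundary, CpG101 and CpG108, 7 bases apart, gave different calls on 28.2% of reads in the dead pup, and on 25.6% of reads CpG101 alone of the pair was methylated. In the surviving knockout's tail the pair differed on 14.9% of reads, in knockout mESC on 21.3%, in knockout trunk on 10.9% and in wild-type tail on 8.02%. In every one of these libraries reads with CpG101 alone methylated outnumbered those with CpG108 alone methylated. That restates the higher level of CpG101 in them and is no separate result. These pairs were picked after their values were seen.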
